A study of Mus musculus with 8 samples.

Results

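The Gimap GTPase family was followed in P14 CD8 T cells over 4 conditions. Its members were taken by symbol, and all 8 (Gimap1, Gimap3, Gimap4, Gimap5, Gimap6, Gimap7, Gimap8 and Gimap9) were found among the 24303 genes of the deposited RNA-Seq table. P14 cells are splenic CD8 T cells of C57BL/6 background whose transgenic T cell receptor recognizes the GP33 peptide of LCMV, and all of them were first activated with plate-bound anti-CD3 and anti-CD28 until day 2. Effector cells were collected on day 7, and the other 3 conditions on day 19. In its flow cytometry the study labels day 7 Effector cells as stimulated for 7 days. Acute-2d cells received no stimulation after day 2, and Acute-7d cells received GP33 until day 7 and were then rested. T_Dysf cells received GP33 until day 19 and TGF-β1 from day 7, so prolonged antigen and TGF-β1 cannot be told apart. Each condition has 2 libraries, described in the study as biological replicates of cells grown in culture, from cell pellets sorted as P14 cells. The collection day of Effector cells cannot be told apart from their condition. The study states that T_Dysf cells were isolated under chronic stimulation, whereas acutely stimulated cells had been resting. Stimulation or rest at collection therefore cannot be told apart from these conditions.

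Gimap proteins (GTPases of immunity-associated proteins) are small GTP-binding proteins of lymphocytes that sit mostly on the membranes of lysosomes, the endoplasmic reticulum, the Golgi and other organelles. They share a G domain related to that of the septins and are known for their part in the survival of resting T cells, since loss of Gimap5 or Gimap1 in mice and rats causes a shortage of T cells. Their genes lie side by side. In GRCm38 the members spanned 124 kilobases of chromosome 6, from 48647186 to 48770851, in the order Gimap8, Gimap9, Gimap4, Gimap6, Gimap7, Gimap1, Gimap5 and Gimap3. Gimap6 and Gimap3 are on the minus strand and the others on the plus strand.

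The promoters of Gimap3 and Gimap6 are shown because only these members passed on the adjusted p in the fit over all genes, described below. That of Gimap5 is shown because Gimap3 is its closest paralog and the values of Gimap5 did not follow those of Gimap3. Each run holds the 250 bases before the RefSeq start (GRCm38.p6), read on the strand of the gene, with every match to a searched motif in capitals on either strand.
Gimap3 (chr6:48770852-48771101, minus strand): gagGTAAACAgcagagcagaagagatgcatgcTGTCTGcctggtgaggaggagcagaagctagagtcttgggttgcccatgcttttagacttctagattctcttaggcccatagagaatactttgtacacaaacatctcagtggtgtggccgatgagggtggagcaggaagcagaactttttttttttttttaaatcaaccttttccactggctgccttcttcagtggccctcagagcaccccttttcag
Gimap6 (chr6:48708245-48708494, minus strand): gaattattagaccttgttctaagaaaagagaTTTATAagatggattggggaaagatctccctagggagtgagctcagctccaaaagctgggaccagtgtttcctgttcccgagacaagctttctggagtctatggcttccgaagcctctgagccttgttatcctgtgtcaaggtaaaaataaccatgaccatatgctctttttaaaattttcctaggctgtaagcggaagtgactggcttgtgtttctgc
Gimap5 (chr6:48745947-48746196, plus strand): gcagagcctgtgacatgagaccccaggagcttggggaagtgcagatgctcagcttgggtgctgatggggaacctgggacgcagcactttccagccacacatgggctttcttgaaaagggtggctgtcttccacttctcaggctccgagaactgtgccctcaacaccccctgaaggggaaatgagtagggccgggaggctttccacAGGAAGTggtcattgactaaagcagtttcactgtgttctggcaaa
The capitals in Gimap3 mark the FOXO letters GTAAACA, from -247 to -241, and the SMAD letters CAGACA read on the other strand, from -218 to -213. In Gimap6 they mark TATAAA on the other strand from -219 to -214, and in Gimap5 the ETS letters AGGAAGT from -45 to -39. Windows of the same length around 27025 promoters held GTAAACA in 3.09%, CAGACA in 17.1%, TATAAA in 12.97% and AGGAAGT in 7.80%, on either strand. No pair of the motifs overlapped in these 3 windows. Among the other members, the RUNX letters TGTGGT stood in Gimap4, Gimap7 and Gimap1 (14.2% of all promoters) and the KLF letters GGGCGGG in Gimap9 and Gimap7 (23.6%). The other matches were TGCGGT (RUNX, -94 to -89, on the other strand) and CAGGTG (E-box, -90 to -85) in Gimap9, which overlap, and CAGACA in Gimap8, with TGCGGT in 5.06% and CAGGTG in 17.1% of all promoters. No member held CCGGAA (ETS), CTTTGAT or CTTTGTT (TCF), GGGTGTG (KLF), GAAANNGAA (IRF), TGANTCA (AP-1) or GTCTAGAC (SMAD), which stood in 12.2%, 3.23%, 4.99%, 6.85%, 7.16%, 6.87% and 0.174% of all promoters. A match is a description of the letters, not a site of binding, and the absence of one says nothing of a factor.

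The values are normalized counts, which are estimated read counts divided by a size factor for each library. The value worth 1 read was read off the low end of each library, and by it the libraries held 19382146 to 24856224 reads on genes. The least abundant member had at least 1600 reads in every library, which allows a sampling error of at most 2.5%, so depth was not the limit. RESUB, a prefix the labels do not explain, is part of the names of 3 libraries, those of Effector and the first of Acute-7d. In them Xist ran from 53.5 to 115 and the sum of 4 Y-linked genes from 4642 to 5581, against 21871 to 30427 and 0 to 13.8 in the other 5. The 3 libraries thus have the pattern of male cells, and the other 5 that of female cells. This pattern cannot be told apart from the prefix, and both split the Acute-7d replicates. In Effector against Acute-2d and in T_Dysf against Effector, both also coincide with the condition. In T_Dysf replicate 1, 138 entries held under 3 reads while every other library held at least 50, and none of them was a member. The summed level of 7 CD8 T cell markers was 118426 and 122832 in T_Dysf and ran from 60252 to 76074 in the other 6 libraries. The markers did not move together. Cd3d, Cd3e, Cd3g, Cd8a and Cd8b1 had higher means in T_Dysf than in Acute-7d. Cd2 and Cd5 had lower ones, at 3458 and 692 against 8599 and 1829. The B cell markers summed to 55.8 to 178 and the erythroid markers to 25.5 to 47.4. Apart from Pecam1, which T cells also express, no marker of endothelial cells, another site of Gimap expression, had a mean of 50. Of the CD4 T cell and myeloid markers, Cd4 (at most 13.04) and Adgre1 (at most 6.91) were near 0 in every library. Others of these lists were not, such as Zbtb7b and Lyz2, with Acute-7d means of 1141 and 264. In such bulk libraries fewer cells of a type and less RNA per cell cannot be told apart. The myeloid markers summed to 327 to 743, the NK markers to 1302.65 to 4559, the dendritic cell markers to 114 to 567 and the CD4 T cell markers to 1058 to 1639, and their part in the differences below was not tested. Of the NK markers, Eomes and Klrb1c had Acute-7d means of 2790 and 1195, Ncr1 of 67.6 and Tyrobp of 31.9. Tyrobp was higher in T_Dysf, at 219, while the other NK markers were lower there than in Acute-7d.

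All 8 members were abundant in every condition. Their mean levels placed Gimap4, Gimap3 and Gimap6 at rank 67, 78 and 136 of 24303 genes, and Gimap9, the lowest, at rank 2166. Per kilobase of transcript, which makes genes of different length comparable, Gimap4 led in all 4 conditions. Its level per kilobase was 13573 ± 160 (SD, n = 2) in T_Dysf and 11959 ± 1333 in Effector, against 16534 ± 480 in Acute-2d and 16200 ± 2110 in Acute-7d. Gimap3 came next in both Acute conditions and in T_Dysf, but its libraries overlapped with those of Gimap4 in Acute-7d. In Effector, Gimap6 stood above Gimap3 in both libraries. Gimap1 and Gimap7 followed. Their libraries overlapped with each other in all conditions but T_Dysf, where Gimap1 stood above. Gimap8, Gimap9 and Gimap5 were lowest, at 1383 to 2072 per kilobase on average, and their order changed from condition to condition. In T_Dysf the libraries of Gimap8, Gimap9 and Gimap5 did not overlap, in that order.

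Differences were tested with limma, by 1 fit to the log2(normalized count + 1) of all 8 libraries, with Benjamini-Hochberg adjustment over 24303 genes. A gene was called where the conditions differed at least 2-fold with an adjusted p under 0.05. Of the 8 members, Gimap3 was called, as lower in Effector than in either Acute condition, and no other member was called in any of the 6 comparisons. Without the threshold on the fold change, Gimap6 also passed, as lower in T_Dysf than in either Acute condition. Values of Gimap1, Gimap5, Gimap7, Gimap8, Gimap9 and Gimap4 passed in no comparison. With genes of a maximum under 50 left out, Gimap4 in Effector against Acute-2d and Gimap8 in T_Dysf against Effector also passed on the p-value (limma adjusted p = 0.0394 and 0.0462), with fold changes under 2.

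**Figure D1:**
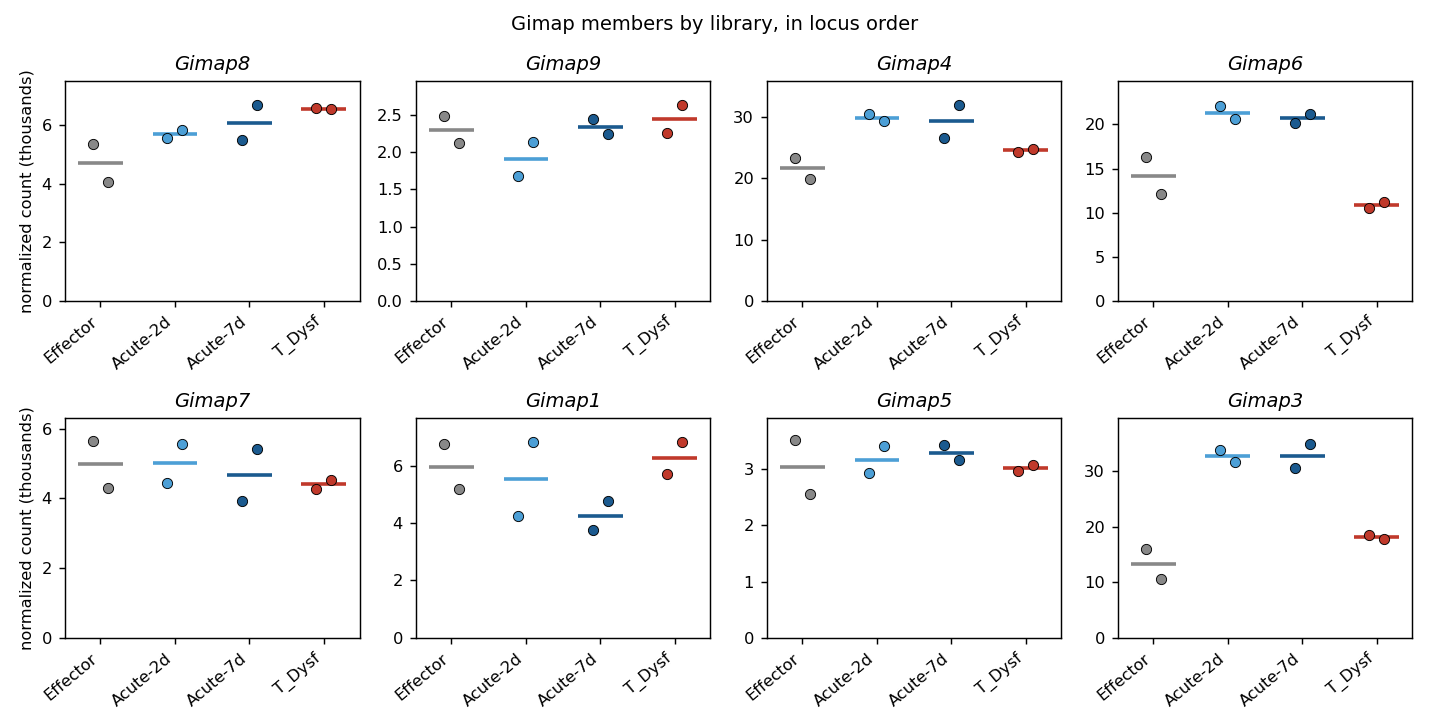
Normalized counts (axes in 1000s, from 0) of the 8 members in locus order, with a point for each library and a bar at the mean of the 2 libraries of a condition. The 4 Acute libraries of Gimap3 sit between 30645 and 34794, above both T_Dysf libraries and both Effector libraries.

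Gimap3 encodes a paralog of Gimap5 of organelle membranes that in mice has been linked to T cell survival and to the inheritance of mitochondrial DNA. Its normalized count was 15958 and 10649 in the 2 Effector libraries, 33756 and 31686 in Acute-2d, 30645 and 34794 in Acute-7d, and 18525 and 17709 in T_Dysf. The 4 Acute libraries were high, the T_Dysf libraries lay between, and the Effector libraries were lowest, with no overlap between these 3 levels. In Effector against Acute-7d, Gimap3 was lower by 1.32 on the log2 scale (SE 0.21, limma adjusted p = 0.0255), a difference of 2.50-fold. Against Acute-2d it was lower by 1.33 (SE 0.21, limma adjusted p = 0.0234). In T_Dysf the log2 fold change was -0.85 against both Acute-7d (unadjusted 95% interval -1.40 to -0.30, as for the other intervals, limma adjusted p = 0.082) and Acute-2d (-1.41 to -0.30, limma adjusted p = 0.0719). These 2 differences missed the threshold in the fit over all genes. They passed on the p-value, still with a fold change under 2, when genes with a maximum under 50 were left out (limma adjusted p = 0.0209 and 0.0171). T_Dysf and Effector differed by 0.47 (-0.08 to 1.03, limma adjusted p = 0.21), a value that rested on single Effector libraries, at 0.77 without replicate 1 and 0.18 without replicate 2 (limma adjusted p = 0.0348 and 0.483). The Acute conditions differed by 0.00 (-0.56 to 0.55).

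The calls of Gimap3 were lost when an Acute library was left out, while its fold changes stayed about as large. Wherever 1 library of a condition is left out, the spread comes from the other conditions, and the remaining library is assumed to vary like theirs. Without Acute-7d replicate 1 or 2 the adjusted p was 0.10 and 0.0984, and without Acute-2d replicate 1 or 2 it was 0.106 and 0.0843 (limma), while the log2 fold change stayed between -1.37 and -1.28 against Acute-2d and between -1.42 and -1.23 against Acute-7d. With a term for the RESUB prefix the log2 fold change was -1.23 (SE 0.29) against Acute-7d and -1.14 (SE 0.41) against Acute-2d, and the adjusted p was 0.0991 and 0.257 (limma). The term rests on the difference between the Acute-7d replicates, as no other condition holds both kinds of library. Its -1.23 is therefore the value without Acute-7d replicate 2 and no separate check. Among the libraries that carry the prefix, the Effector libraries held 0.521 and 0.347 of the Gimap3 level of Acute-7d replicate 1. Among those that do not, the T_Dysf libraries held 0.509 to 0.585 of its level in the 3 Acute libraries. No Effector library lacks the prefix, and no Acute-2d or T_Dysf library carries it. For Effector against Acute-2d and for T_Dysf against Effector, the prefix and the condition therefore cannot be told apart. This holds for every member.

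Gimap6 encodes a cytosolic member that binds the Atg8 protein Gabarapl2 and takes part in autophagy. Its normalized count was 16322 and 12061 in Effector, 22050 and 20571 in Acute-2d, 20188 and 21131 in Acute-7d, and 10504 and 11255 in T_Dysf. Here the T_Dysf libraries were lowest, the Effector libraries lay between them and the Acute libraries, and no library of one level overlapped with another. The log2 fold change in T_Dysf was -0.93 against Acute-7d (SE 0.16, limma adjusted p = 0.0356) and -0.97 against Acute-2d (SE 0.16, limma adjusted p = 0.0261). Gimap6 therefore passed on the p-value but stayed just under a fold change of 2, at 1.90-fold and 1.96-fold. With the libraries rescaled to equal 75th percentiles the difference from Acute-2d reached -1.05 and was called. With a term for the RESUB prefix the values were -0.96 and -0.97, and neither passed (limma adjusted p = 0.146 and 0.0636). T_Dysf and Acute-2d both lack the prefix, so the term cannot move their difference. Against Acute-7d it gives the same value as leaving out Acute-7d replicate 1, so it is no separate check. Leaving out any of the libraries compared raised the adjusted p to between 0.098 and 0.17 against Acute-7d and between 0.0816 and 0.137 against Acute-2d (limma). The T_Dysf libraries held 0.476 to 0.547 of the Gimap6 level of the 3 Acute libraries without the prefix. In Effector the log2 fold change was -0.56 against Acute-7d (limma adjusted p = 0.0872) and -0.60 against Acute-2d (limma adjusted p = 0.0709). Both passed on the p-value when genes with a maximum under 50 were left out (limma adjusted p = 0.0307 and 0.0226). T_Dysf and Effector differed by -0.37 (-0.79 to 0.05, limma adjusted p = 0.201). The Effector values of Gimap6 moved with single libraries. Without Effector replicate 1 they were -0.78 against Acute-7d, -0.82 against Acute-2d and -0.15 for T_Dysf against Effector (limma adjusted p = 0.0227, 0.0190 and 0.397). Without Effector replicate 2 they were -0.34, -0.38 and -0.59 (limma adjusted p = 0.138, 0.111 and 0.05003).

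Gimap4, known to speed the death of T cells once apoptosis has begun, had the highest mean. Its normalized count was 23275 and 19873 in Effector, 30440 and 29216 in Acute-2d, 26533 and 31915 in Acute-7d, and 24282 and 24689 in T_Dysf. The libraries stood in the same order as those of Gimap3, all Acute libraries above T_Dysf and T_Dysf above Effector, over a narrower range. The log2 fold change was -0.44 in Effector against Acute-7d (-0.80 to -0.07, limma adjusted p = 0.114) and -0.47 against Acute-2d (-0.84 to -0.10, limma adjusted p = 0.0933). In T_Dysf it was -0.25 and -0.28, with limma adjusted p of 0.35 and 0.283.

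Gimap1 is a Golgi protein needed for mature T and B cells. Its normalized count was 6746 and 5177 in Effector, 4253 and 6814 in Acute-2d, 3761 and 4754 in Acute-7d, and 5720 and 6822 in T_Dysf. Both T_Dysf libraries stood above both Acute-7d libraries, but the 2 Acute-2d libraries spanned nearly the whole range. The log2 fold change in T_Dysf against Acute-7d was 0.56 (-0.18 to 1.30, limma adjusted p = 0.298).

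Gimap5, a lysosomal protein whose loss shortens the life of T cells, held 2554 to 3512 over the 8 libraries. Its condition means lay between 3025 and 3296, and its log2 fold changes between -0.14 and 0.06. The 95% intervals of these differences reached -0.58 at the low end and 0.51 at the high end, so a change of 2-fold lies outside them in each comparison. Gimap7, which pairs with other members and stimulates GTP hydrolysis, held 3927 to 5657, with condition means of 4404 to 5009 and log2 fold changes between -0.18 and 0.10. Neither gene passed the test in any comparison.

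Gimap8, the largest member, with several G domains in one chain, had its highest mean in T_Dysf, but its highest library in Acute-7d. Its normalized count was 5347 and 4059 in Effector, 5538 and 5838 in Acute-2d, 5475 and 6681 in Acute-7d, and 6564 and 6533 in T_Dysf. The T_Dysf and Acute-7d libraries overlapped, with a log2 fold change of 0.11 (-0.31 to 0.54, limma adjusted p = 0.738). T_Dysf stood above Effector in both libraries, at 0.49 (0.07 to 0.91, limma adjusted p = 0.116), and without Effector replicate 1 or 2 at 0.69 or 0.29. Gimap9, a small and little studied member, held 2483 and 2122 in Effector, 1685 and 2143 in Acute-2d, 2443 and 2240 in Acute-7d, and 2257 and 2639 in T_Dysf. Acute-2d had its lowest library, and T_Dysf stood above Acute-2d by 0.36 (-0.05 to 0.77, limma adjusted p = 0.231).

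**Figure D2:**
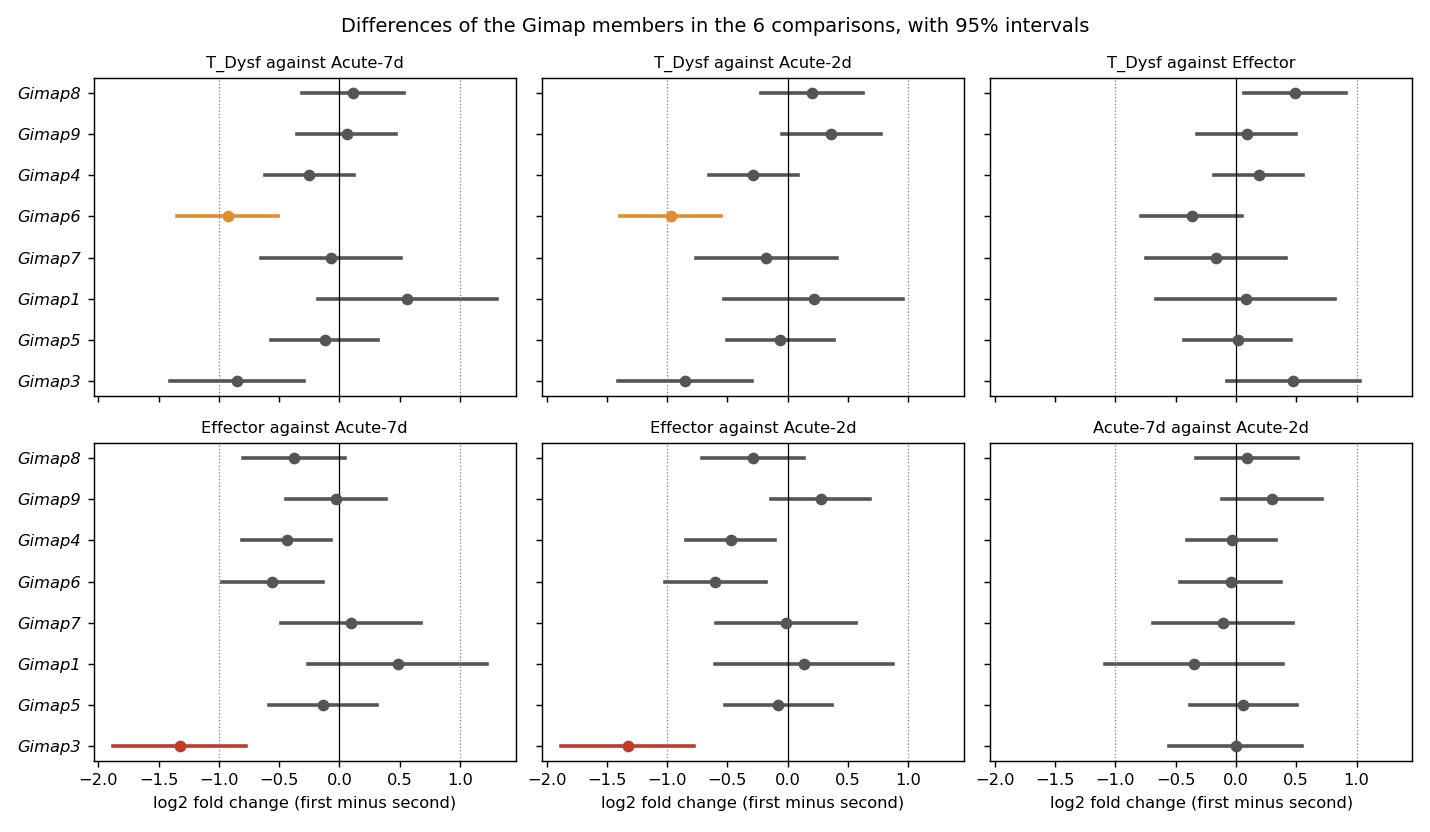
Log2 fold change (first minus second condition) of each member in the 6 comparisons, with unadjusted 95% intervals from the limma fit. Red marks the members called, orange an adjusted p under 0.05 with a fold change under 2, and dotted lines a fold change of 2. Gimap3 in Effector (-1.32 and -1.33) and Gimap6 in T_Dysf (-0.93 and -0.97) stand apart from 0.

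Set beside all genes, the family was not called more often than the table as a whole in most comparisons. In Effector against Acute-7d 1 of 8 members was called, against 8.06% of all genes, and in Effector against Acute-2d 1 of 8 against 8.78%. In T_Dysf 0 of 8 were called against Acute-7d (all genes, 5.57%), Acute-2d (7.35%) and Effector (9.22%), and in Acute-7d against Acute-2d 0 of 8 (0.169%). On an unadjusted p under 0.05 (limma), 3 of 8 members passed in Effector against Acute-7d (all genes, 30.4%) and 3 of 8 against Acute-2d (31.2%). In T_Dysf 2 of 8 passed against Acute-7d (26.1%), 2 of 8 against Acute-2d (27.7%) and 1 of 8 against Effector (31.7%), and 0 of 8 between the Acute conditions (7.31%). On the adjusted p alone, 1 of 8 passed in T_Dysf against Acute-7d (9.21% of all genes) and against Acute-2d (11.9%), 0 of 8 against Effector (15.6%), 1 of 8 in Effector against Acute-7d (14.9%) and Acute-2d (15.7%), and 0 of 8 between the Acute conditions (0.169%). One member in 8 is near these shares of the adjusted p, and no count of members was tested against them. Abundant genes were called more often. Of 4702 genes with a mean of at least 1000, 10.9% were called in Effector against Acute-7d and 6.83% in T_Dysf against Acute-7d. As a group, the members had a median log2 fold change of -0.26 in Effector against Acute-7d, -0.18 in Effector against Acute-2d, -0.10 in T_Dysf against Acute-7d, -0.12 against Acute-2d and 0.08 against Effector, and that of all genes was 0 in each.

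The make-up of the family was also followed by library, as a description with no test. The normalized counts of the 8 members summed to 79300 and 60800 in Effector, 105103 and 105241 in Acute-2d, 96408 and 110095 in Acute-7d, and 75094 and 77260 in T_Dysf. These were 0.275% to 0.383% of a library in Effector, 0.446% to 0.521% in the Acute conditions and 0.35% to 0.356% in T_Dysf. The sum of the 5 less abundant members overlapped between the conditions, at 18217 to 23744 in Effector, 18857 to 23769 in Acute-2d, 19043 to 22256 in Acute-7d and 21784 to 23607 in T_Dysf. Per kilobase, Gimap3, Gimap4 and Gimap6 together held 75.7% to 81.1% of the family in the 4 Acute libraries, 68.2% in both Effector libraries, and 69.8% and 67.9% in T_Dysf.

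The 3 abundant members stood in different ratios in T_Dysf and Effector, here taken from normalized counts that are not divided by transcript length. The ratio of Gimap3 to Gimap6 was 0.978 and 0.883 in Effector, 1.53 and 1.54 in Acute-2d, 1.52 and 1.65 in Acute-7d, and 1.76 and 1.57 in T_Dysf. In normalized counts, Gimap3 was thus the lower of the pair in Effector and the higher in the other 6 libraries, by 1.52-fold to 1.76-fold. Per kilobase the order was the same, with smaller gaps in those 6, such as 8636 against 6589 in T_Dysf replicate 1. The ratio of Gimap6 to Gimap4 was 0.433 and 0.456 in T_Dysf and 0.607 to 0.761 in the other 6 libraries. These ratios do not depend on how the libraries were scaled. They were chosen after their values were seen and are given with no test.

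**Figure D3:**
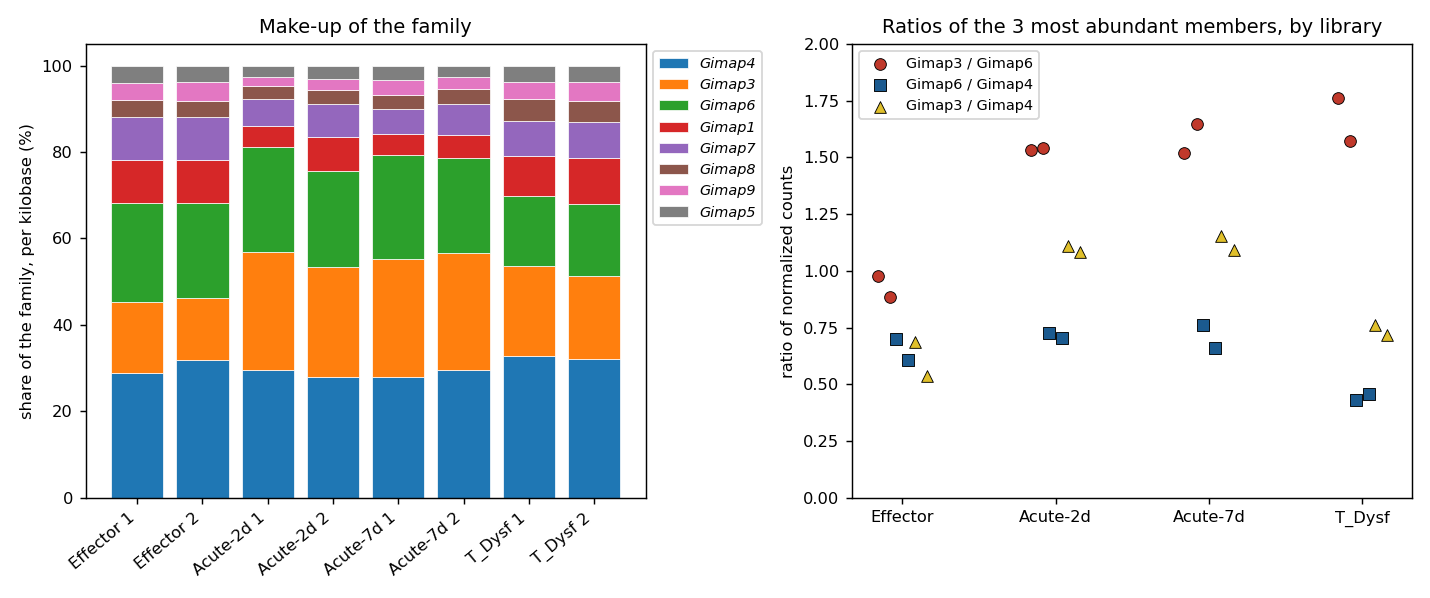
Left, share (%) of each member in the family per kilobase of transcript, for each library. Right, ratios of the normalized counts of Gimap3, Gimap4 and Gimap6 by library, with 2 points for each condition and ratio. Gimap3 over Gimap6 is under 1 in Effector alone, and Gimap6 over Gimap4 is under 0.5 in T_Dysf alone.

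Replicates of Effector differed in the level of the whole family. All 8 members were higher in replicate 1, by 1.17-fold to 1.50-fold, while 35.9% of 4702 abundant genes were higher in that library and their median ratio was 0.916. All 6 neighbours of the family with a mean of at least 50 were also higher in Effector replicate 1. Without Effector replicate 2 the log2 fold change of Gimap3 was -1.03 against Acute-7d, and without replicate 1 it was -1.62 (limma adjusted p = 0.0391 and 0.0115). Against Acute-2d the values were -1.04 and -1.62 (limma adjusted p = 0.0347 and 0.0100). These fits hold 1 Effector library and none of the spread between the Effector replicates, and the SE fell from 0.21 to 0.13, so their p-values do not bear on that spread. In T_Dysf the ratio of replicate 1 to replicate 2 lay between 0.839 and 1.05 over the members.

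Some reads of the locus could be assigned to more than one entry. Of the 50-base stretches of the Gimap3 transcript, 9.06% also occurred in Gimap5, as did 9.98% of those of Gimap5 in Gimap3, and no other pair of members shared any. The sum of Gimap3 and Gimap5, which is free of this split, was 19470 and 13203 in Effector, 34081 to 37949 in the Acute libraries, and 21497 and 20786 in T_Dysf. Gm28053, annotated by GENCODE vM21 as a transcript that runs from Gimap7 into Gimap5, was low, at 55.5 to 169, and shared 10.3% of the stretches of Gimap1 and 5.51% of those of Gimap5. Gimap1os, an RNA on the strand opposite to Gimap1, held 760 to 1385. It overlapped with 7.34% of the Gimap1 transcript, and the strand setting of the counting is not given in the sources used here, so reads of the pair cannot be told apart there. The ratio of Gimap1os to Gimap1 was 0.133 and 0.138 in T_Dysf, 0.289 and 0.291 in Acute-7d, 0.198 and 0.193 in Effector, and 0.251 and 0.155 in Acute-2d. The T_Dysf and Acute-7d libraries thus stood apart in this ratio, but the log2 fold change of Gimap1os between them was -0.53 (limma adjusted p = 0.187). The long noncoding entries Gm44226 (227 to 380) and 4833403J16Rik (197 to 301), between Gimap5 and Gimap3, were called in no comparison.

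Past the Gimap3 end of the locus, a pair of genes had larger log2 fold changes against either Acute condition than any member. These were Tmem176b and Tmem176a, the nearest coding neighbours there, which encode ion channels of immune cells. The normalized count of Tmem176b was 76.8 and 62.2 in Effector, 1149 and 954 in Acute-2d, 671 and 891 in Acute-7d, and 236 and 222 in T_Dysf. Its libraries stood in the same order as those of Gimap3. Tmem176b was lower by 3.46 on the log2 scale in Effector against Acute-7d and by 1.75 in T_Dysf against Acute-7d (limma adjusted p = 0.0048 and 0.0122). Tmem176a, at 41.1 to 53.0 in Effector, 165 to 191 in T_Dysf and 367 to 663 in the Acute libraries, was lower by 3.31 in Effector and had a value of -1.41 in T_Dysf (limma adjusted p = 0.0108 and 0.0505). Beyond them, Gpnmb was called in T_Dysf against Effector, as lower by 2.27 (limma adjusted p = 0.0342).

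On the Gimap8 side, of the abundant neighbours there, Repin1, a zinc finger gene, held 418 to 565 in Effector, 283 to 391 in the Acute libraries and 639 to 705 in T_Dysf, and was called as higher in T_Dysf against Acute-2d (1.01, limma adjusted p = 0.0493). Lrrc61 and Zfp775 were called in no comparison. The calls of Gm5111, Rarres2 and Gm7932 rested on means of 2.78 to 13.8 normalized counts. Doxl2 was listed at 0 in every library. Of the 10 neighbours, 3 were called in Effector against Acute-7d (all genes, 8.06%) and 3 in T_Dysf against Acute-7d (5.57%). In T_Dysf against Effector 5 were called (9.22%). These counts include the genes of low means above, and they were not tested against the shares.

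**Figure D4:**
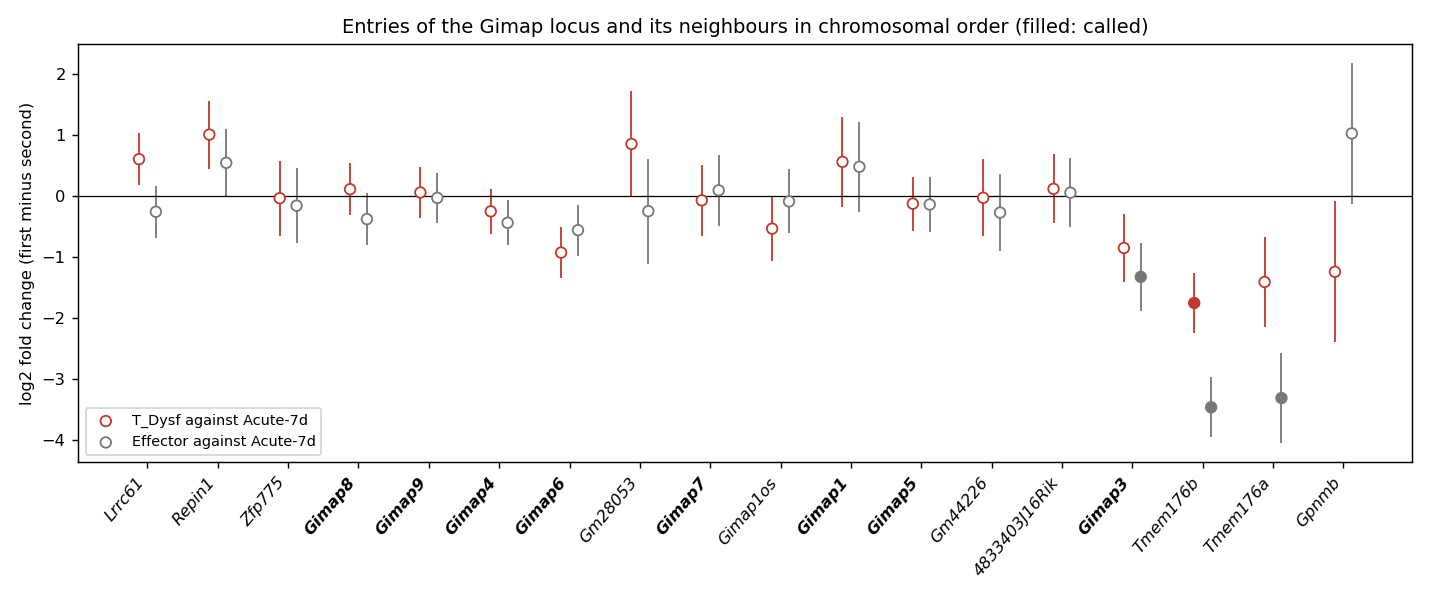
Log2 fold change with unadjusted 95% intervals for T_Dysf (red) and Effector (grey) against Acute-7d, for the members (bold) and for the other entries and neighbours with a mean of at least 50, in chromosomal order. Filled points were called, and Gimap3, Tmem176b and Tmem176a at the right end hold the lowest Effector values.

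The order of the libraries shown by Gimap3 and Gimap4, with all Acute libraries above T_Dysf and T_Dysf above Effector, was found in 640 of 12028 genes with a mean of at least 50 (5.32%), and in 6.81% of those with a mean of at least 1000. The order of Gimap6, with T_Dysf lowest and Effector between, was found in 466 genes (3.87%). Among the named genes, Il7r, Foxo1 and Satb1 were picked out after their values were seen. Il7r, the receptor for the survival cytokine IL-7, had the order of Gimap3, at 2314 to 2636 in Effector, 3374 to 3560 in T_Dysf and 5885 to 6575 in the Acute libraries. Foxo1, a transcription factor of quiescent T cells, also had it, at 1692 to 1776, 2299 to 2344 and 3770 to 4372. Foxo1 was lower in Effector against Acute-7d by 1.15 (limma adjusted p = 0.0027), and its value in T_Dysf against Acute-7d was -0.73 (limma adjusted p = 0.0048), past the p-value but under a fold change of 2. Satb1, a chromatin organizer of T cells, had the order of Gimap6 and fell in T_Dysf against Acute-7d by 1.21 (limma adjusted p = 8.3e-04).

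Of 21 genes of naive and quiescent T cells, 11 were called in T_Dysf against Acute-7d (all genes, 5.57%), all of them lower. The median log2 fold change of the 21 was -1.21. Tcf7, a transcription factor of stem-like T cells, held 161 and 122 in T_Dysf and 2178 to 18473 elsewhere. In Effector against Acute-7d 5 of 21 were called, as lower (all genes, 8.06%), among them Btg1, which restrains proliferation. Btg1 held 5482 and 3941 in Effector against 14462 to 21332 in the Acute libraries, but was highest in T_Dysf, at 26180 and 26853.

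The pathways that Gimap proteins are tied to were followed by lists of their genes. Of 12 Atg8 and autophagy genes, 0 were called in T_Dysf against Acute-7d (all genes, 5.57%) or Acute-2d (7.35%). Against Effector 1 was called (9.22%), Map1lc3a, as higher in T_Dysf (1.24, limma adjusted p = 0.0173). Under a fold change of 2, Gabarap (0.69, limma adjusted p = 0.0417) and Atg5 (0.54, limma adjusted p = 0.0475) passed on the p-value in T_Dysf against Acute-7d. The medians of this list in T_Dysf against Acute-7d and Effector were 0.08 and 0.41. Of 12 Bcl2 family genes, to which Gimap proteins have been reported to bind, 0 were called in T_Dysf against Acute-7d (all genes, 5.57%) or Acute-2d (7.35%). Under a fold change of 2, Bcl2 (-0.78, limma adjusted p = 0.0282) and Bak1 (0.89, limma adjusted p = 0.0277) passed on the p-value in T_Dysf against Acute-7d. In Effector against Acute-7d 2 of the 12 were called, as higher (all genes, 8.06%), with a list median of -0.15. These were the pro-apoptotic Bak1 (1.22, limma adjusted p = 0.0150) and the pro-survival Bcl2a1b (1.03, limma adjusted p = 0.0401). Bcl2a1b has near-identical copies, so its counts are uncertain. Of 10 genes of the Gimap5 pathway, 2 were called in Effector against Acute-7d (all genes, 8.06%) and the same 2 against Acute-2d (8.78%). These were Foxo1 and Foxo3, as lower. In T_Dysf 0 were called against Acute-7d (5.57%) or Acute-2d (7.35%). No count of these lists was tested against the shares. Under a fold change of 2, Foxo1 (-0.73, limma adjusted p = 0.0048) and Lamp1 (0.33, limma adjusted p = 0.0487) passed on the p-value in T_Dysf against Acute-7d.

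Other GTPases were followed in the same way. Of 11 measured septins, the nearest structural relatives of the Gimap proteins, 1 was called in T_Dysf against Acute-7d (all genes, 5.57%). In Effector against Acute-7d 1 was called as well (8.06%). This was Septin11, as higher in T_Dysf (1.09, limma adjusted p = 0.0177) and in Effector (1.24, limma adjusted p = 0.0150). These counts were not tested against the shares. Of 22 interferon-inducible GTPases, 3 were called as lower in T_Dysf than in Acute-7d (all genes, 5.57%) and 6 than in Acute-2d (7.35%). None was called as higher, and the list medians were -1.01 and -1.38. Gbp4, a guanylate-binding protein of interferon responses, held 6301 to 8326 in Effector, 6858 to 7410 in T_Dysf and 16451 to 22872 in the Acute libraries, and was lower in both T_Dysf and Effector than in Acute-7d. Reads of the Gbp genes can be shared between near-identical copies, so their counts are uncertain.

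Of 22 transcription factors whose motifs were searched in the promoters, 8 were called in T_Dysf against Acute-7d (all genes, 5.57%), 7 of them lower. In Effector against Acute-7d 4 were called (all genes, 8.06%), 3 of them lower. Irf1, an interferon-induced factor, was lower by 2.22 and 2.85 in these comparisons (limma adjusted p = 0.0310 and 0.0178). The IRF letters were in none of the 8 Gimap promoters and in 7.16% of all promoters, and a link between Irf1 and the members was not tested.

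The genes most like the family were sought by Pearson r, over the 8 libraries, between log2(value + 1) and the mean of the standardised member values. This mean was lowest in Effector replicate 2 (-1.19) and highest in Acute-2d replicate 2 (0.65), and Effector replicate 1 stood at 0.29. Of 10294 coding genes compared, the 8 with the highest r were Bckdha (0.93), a subunit of the enzyme that breaks down branched-chain amino acids, and Ccl27a, Trf, Marveld1, Sdr42e1, Thap3, C030006K11Rik and Sesn1, with r of 0.91 to 0.92. Bckdha held 650 and 502 in Effector, 631 and 790 in Acute-2d, 687 and 684 in Acute-7d, and 614 and 635 in T_Dysf. The libraries share scaling and condition, and the ranking did not hold: 1 of the 8 was among the first 8 by Spearman rho, and 0 over the 6 libraries of day 19.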

How the data were processed

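RNA-Seq reads were aligned by the authors with STAR to mm10, quantified to RefSeq transcripts in Partek Flow and normalized by the median-ratio method of DESeq2, with versions of the first and last not given in the sources used here. The values the authors deposited are a signal: estimated read counts per gene divided by a size factor for each library. They are not whole reads, so no count model was fitted. The study states a filter on genes with a maximum under 50, but 11128 of 24303 genes in the table lie under it, so all were tested and the filter was tried as an alternative. Groups came from the sample titles.

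Tests used limma (3.58.1, R 4.3.3; lmFit, contrasts.fit, eBayes with trend) on log2(value + 1), 2 libraries per group, 4 residual degrees of freedom, two-sided, and were tested on simulated data. An exact permutation test of 2 against 2 libraries cannot go below 0.333. Replicate numbers were not taken as pairs (correlations of deviations -0.199 to 0.197). Members, gene lists and tests were chosen with earlier results of these data known. Named were the members, other locus entries, 5 coding neighbours on each side, at most 6 called genes per list by mean, and the 8 most similar genes. Some genes that the rule names were left out of the text. Positions, transcripts and promoters came from RefSeq (GRCm38.p6) and GENCODE vM21. Python 3.11.15, pandas 2.3.3 and matplotlib 3.10.9 made tables and plots.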

Additional observations from a re-analysis of the deposited data

How the results depend on the processing

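In Effector against Acute-7d and against Acute-2d, 1 member was called, and 0 with the 2 groups fitted alone or with a term for the RESUB prefix. Leaving out 1 library at a time gave 0 to 1 in both. In T_Dysf 1 member passed against each Acute condition on the adjusted p alone, and 1 against Acute-2d with equal 75th percentiles. With the replicate block, which the pairing check did not call for, Gimap3 stayed called (limma adjusted p = 0.0466 and 0.045) and the adjusted p of Gimap6 in T_Dysf became 0.0684 and 0.0539. Over all genes the block gave 891 calls for 1353 in T_Dysf against Acute-7d. Calls over all genes also moved with the 2 groups alone (155 for 1958 in Effector against Acute-7d, 465 for 2241 in T_Dysf against Effector), with the RESUB term (386 in T_Dysf against Effector, 350 for 2135 in Effector against Acute-2d) and without T_Dysf replicate 1 (422 in T_Dysf against Acute-7d), but rose to 2484 without Effector replicate 1 (T_Dysf against Effector). Between the Acute conditions 41 genes became 1 with either filter on low values. Log2 fold changes under alternatives numbered 720. Many could not move, as the call rules, the filters on low values, the 2 groups alone and the replicate block leave them unchanged. Of the 720, 44 changed sign, all of values of at most 0.21 in size in the fit as reported. With the RESUB term the values were 0.089 for Gimap3 and -0.0016 for Gimap5 between the Acute conditions, and with equal totals 0.016 for Gimap3. Leaving out 1 library gave -0.094 to 0.089 for Gimap3 and -0.051 to 0.17 for Gimap5 between the Acute conditions, and -0.37 to 0.093 for Gimap5 and -0.14 to 0.33 for Gimap7 in Effector against Acute-7d. The cause of these changes was not tested. Depth did not limit the members.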
